A study of Mus musculus with 4 samples.

Results

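The genes described here are 44 transcripts of microglia, of the complement cascade and of inflammatory cytokine signalling in mouse prefrontal cortex. They were taken from a list of gene symbols matched to the gene name column of the array, and the brightest probe of each gene over the 4 arrays stood for it. All 44 had a probe, out of 26753 gene names on the array. Of these, 43 members and 20349 gene names in all were well above background on every array and were compared. Interleukin 1 alpha (Il1a) was not well above background on any array and has no value here. The members were sorted by role into 9 genes of resting microglial identity, 15 myeloid receptors and lysosomal genes, 5 complement genes, 8 cytokine and chemokine genes, 5 genes of lipid handling and of the disease-associated microglial state, and 2 markers of border macrophages.

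The study combined a diet with a gene dose. B6J mice aged 3 months had a wild-type or a Glo1 heterozygous genotype. Glyoxalase 1, the product of Glo1, detoxifies reactive dicarbonyls such as methylglyoxal. They were fed a diet based on starch or on sucrose for about 70 days, from postnatal day 21. Total RNA of 3 mice was pooled for each of the 4 groups (wild-type starch, the control; wild-type sucrose; Glo1 heterozygous starch; Glo1 heterozygous sucrose), and each pool was measured on 1 array. No group therefore has a replicate, no pairwise difference below carries a p-value, and the spread between animals is unknown. The 4 arrays lay on 1 slide with 1 scan time, so the position of an array and its group cannot be told apart here. The sex of the mice and the construction of the Glo1 allele are not given in the sources used here.

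Microglia are the resident macrophages of the brain. They depend on signalling through Csf1r, sense neurons through Cx3cr1 and purines through P2ry12, and engulf synapses and debris. The C1q proteins, which microglia supply in the brain, open the classical complement pathway, in which C4 and then C3 are cleaved and tag surfaces for uptake through Itgam-containing receptors. When microglia leave the resting state they can lower identity genes such as Tmem119 and raise Apoe, Lpl, Spp1, Cst7, Clec7a and Itgax, while NF-kappa-B drives cytokines such as Tnf and Il1b together with its own inhibitor Nfkbia.

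Some probe sequences show what the results below measure. All probes were 60 bases long, and the first 30 bases are printed in lower case, 5′ to 3′, for the genes whose probes decide a result: the 3 C1q chains, the probes of C4b and C3, a pair of Lpl probes, the single probes of Spp1 and Ccr2, and the Itgam and Siglech probes that share bases with other probes.
C1qa A_51_P181451: ccggccagctttctcagccattcggcagaa
C1qb A_51_P351860: attctggggactacggggctacacagaaag
C1qc A_51_P102789: tctgggaaccacctaatggtattattcctg
C4b A_66_P117032: ttaggactctggctctctgagctcagctca
C4b A_51_P428708: tcactggagcgaagggtggaggacaaggat
C3 A_55_P2038525: tgcagaaagggaagaagtacctcatgtggg
C3 A_51_P110301: attcacagaatctatggtggtttatggttg
Lpl A_51_P259296: gaacaccaacccacatgcaaaaccccacaa
Lpl A_55_P2715720: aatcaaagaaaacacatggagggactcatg
Spp1 A_51_P358765: cttagtctgttgtttcatgcaaacaccgtt
Ccr2 A_51_P245989: gaagcagggacagaattcttgctttgaaaa
Itgam A_55_P1977934: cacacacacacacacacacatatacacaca
Itgam A_55_P1977926: tgttaaccagacaggtgccctctaccagtg
Siglech A_55_P2141013: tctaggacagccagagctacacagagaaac
Siglech A_55_P2141008: attggattaatccagtgtgtgaacagtctt

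The scanner files place these probes on mouse build mm9. The C1q probes lie close together on the minus strand, C1qb at chr4:136436578-136436637, C1qc at chr4:136445766-136445825 and C1qa at chr4:136452409-136452468. The brighter C4b probe lies at chr17:34865367-34865426 and the dimmer one, A_51_P428708, at chr17:34866361-34866420, both on the minus strand. The accessions listed for the dimmer probe belong to C4a as well as C4b, near-identical neighbouring copies, so its signal cannot be assigned to C4b alone. The C3 probes A_55_P2038525 and A_51_P110301 lie at chr17:57343678-57343737 and chr17:57343416-57343475. The Lpl probe A_51_P259296 lies at chr8:71430267-71430326 and A_55_P2715720 at chr8:71413311-71413370, and the Ccr2 probe lies at chr9:124022948-124023007. The files do not say whether a probe lies in an exon or a UTR. The brightest Itgam probe opens with a CA repeat and shares a run of 16 bases, on either strand, with 118 array probes of other gene names. That of Siglech shares one with 16 such probes, and every other probe of the members with at most 2. The values of these brightest probes may therefore include RNA of other genes.

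Values are given as relative signal, the probe's processed intensity divided by the 75th percentile of its array, and differences are on the log2 scale. Relative signals of different probes are not compared, because each probe has its own brightness. Unless said otherwise, the 4 values of a gene are in the order wild-type starch, wild-type sucrose, heterozygous starch and heterozygous sucrose. A gene was counted as past the threshold when 2 arrays differed by at least 1.5-fold. The only error that can be estimated is technical. The SD of the difference between 2 spots of 1 probe on an array was 0.26 on the log2 scale in the dimmest quartile of signal, 0.13 and 0.10 in the middle quartiles and 0.06 in the brightest, from few repeated probes outside the brightest quartile. The value of the dimmest quartile comes from spike-in control probes, the others from gene probes. The few gene probes repeated in the dimmest quartile gave 0.15. These SDs compare spots within an array and leave out technical differences between arrays.

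The arrays were alike in depth: between 77.6% and 80.2% of spots were well above background, and no spot was saturated. Glo1 itself read 4.04 on wild-type starch, 5.53 on wild-type sucrose, 2.74 on heterozygous starch and 3.04 on heterozygous sucrose, so the heterozygous arrays were lower by 0.56 (starch) and 0.86 (sucrose) on the log2 scale, as the labels require. Some non-microglial transcripts differed between the pools. Summed relative signals of 8 red cell and platelet genes were 242.6, 121.3, 205.1 and 135.2 in the order of the 4 groups, those of 13 choroid plexus genes 17.1, 18.4, 16.5 and 105.8, and those of 11 striatal genes 35.4, 56.7, 53.1 and 30.4. The prefrontal pools thus differed in blood, choroid plexus and striatal transcripts.

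In wild-type mice, the sucrose array was lower than the starch array for most of the microglial and inflammatory genes. The members past 1.5-fold were all lower on sucrose: the complement genes C1qa and C4b, the chemokines Ccl2, Ccl3 and Ccl4, the monocyte chemokine receptor Ccr2, the disease-associated genes Spp1, Cst7 and Clec7a, and the integrin Itgax. These were 10 of 43 members (23.3%), against 5.92% of all genes tested past the threshold in either direction and 3.52% past it in the lower direction. The median difference over the members was -0.23 on the log2 scale, and 30 of 43 (69.8%) were lower, against 50.1% of all genes. In bulk tissue, fewer cells of a type and less RNA per cell cannot be told apart. The count leaned on dim probes: 7 of the 8 members in the dimmest quartile of signal were past the threshold, where 8.35% of all genes were, and 3 of 15 members in the third quartile, where 1.44% of all genes were. In the second and the brightest quartile 0 of 9 and 0 of 11 were, against 3.66% and 0.649% of all genes. With normexp background correction 4 members remained past it (C1qa, C4b, Ccr2 and Spp1), and among probes above the median signal 3 did (C1qa, C4b and Spp1). With the mean or the median over a gene's probes 8 did, without Clec7a (-0.18 in place of -0.69) and Itgax. Over the same pair of arrays, 8 of 8 red cell and platelet genes were lower on sucrose, their median being -1.34, and the median of 11 monocyte and neutrophil genes was -0.54; their part in the members' result was not tested.

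**Figure D1:**
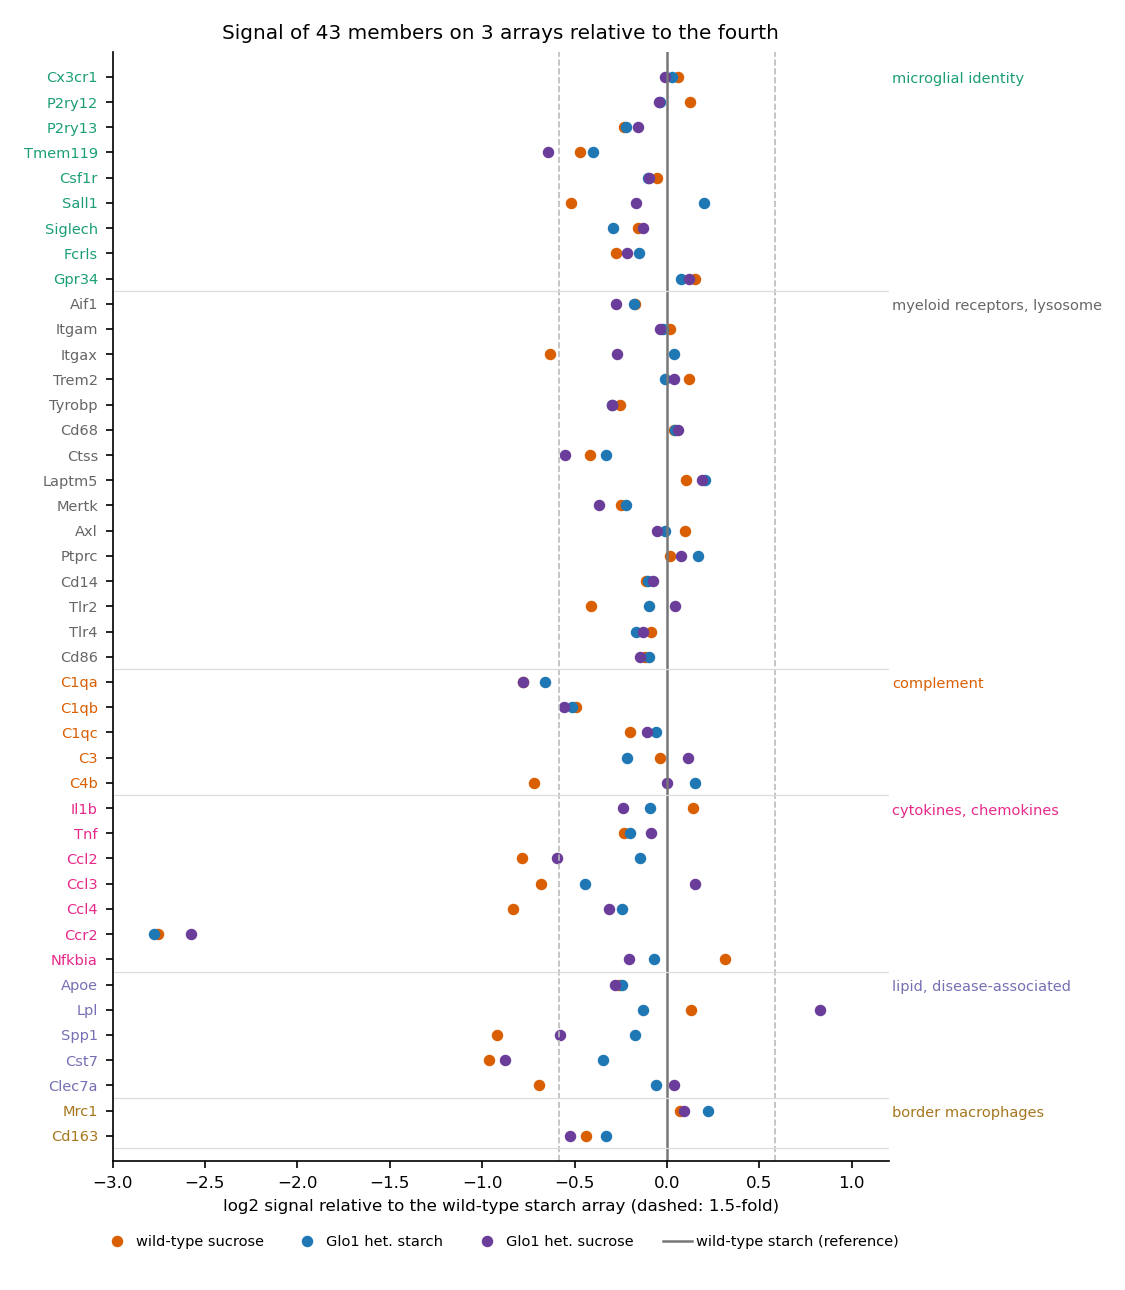
Log2 signal of the 43 measured members on 3 arrays relative to the wild-type starch array (vertical grey line at 0), 1 row a gene, grouped and coloured by role; each point is 1 array of a pool of 3 mice, and the dashed lines mark 1.5-fold. Most wild-type sucrose points lie left of 0, Ccr2 lies far left on all 3 arrays, and Lpl on the heterozygous sucrose array is the one point right of the upper dashed line.

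In Glo1 heterozygous mice, most members differed little between the diets. Lpl and Ccl3 were past 1.5-fold, both higher on sucrose, which is 2 of 43 members (4.65%) against 5.53% of all genes, so the share was near the background. Higher at that size were 3.55% of all genes. The median over the members was -0.04, and 27 of 43 (62.8%) were lower, against 49.9% of all genes. With median scaling, cyclic loess or normexp, or among probes above the median signal, 1 member remained (Lpl). With the mean or median over probes C3 joined them, and with quantile normalisation Ccl3 was lost and Cst7 was past the threshold as lower. The diet comparisons of the wild-type and the heterozygous mice share no array. In both, 18 of 43 members (41.9%) were lower on sucrose, against 30.2% of all genes, and 4 of 43 (9.3%) were higher, against 30.2%.

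On starch, the heterozygous array was below the wild-type array by a small amount for 34 of 43 members (79.1%), against 54.1% of all genes, with a median of -0.13. Past 1.5-fold were C1qa and Ccr2, both lower, 2 of 43 members (4.65%) against 3.92% of all genes in either direction and 2.47% in the lower one. On sucrose the median was 0.02, a value whose sign depended on the processing (between -0.04 and 0.03), and 4 members were past the threshold (9.3%, against 4.54% of all genes in either direction and 3.27% in the higher one), all higher in the heterozygous pool: C4b, Ccl3, Lpl and Clec7a. The other probe of Clec7a gave -0.72 where the brighter gave 0.73, and their mean was 0.01. With the mean over probes Lpl was also below the threshold. With normexp, and also among probes above the median signal, 2 of these remained (C4b and Lpl). In both diets, 17 of 43 members (39.5%) were lower in the heterozygous pool, against 33.2% of all genes, and 7 (16.3%) were higher, against 24.1%. Comparing heterozygous sucrose with wild-type starch, 6 of 43 members (14.0%) were past 1.5-fold, against 7.27% of all genes, with Tmem119, C1qa, Ccl2, Ccr2 and Cst7 lower (3.37% of all genes were) and Lpl higher (3.91% were); among probes above the median signal 3 were (Tmem119, C1qa and Lpl), and with median scaling 9 were (Ctss, C1qb and Spp1 joined, as lower). The diet difference was larger (more positive) in heterozygous than in wild-type mice by at least log2 of 1.5 for 6 of 43 members (C1qa, Ccl3, Ccl4, Ccr2, Lpl and Clec7a), against 8.39% of all genes past that size in either direction and 5.68% in this one; 2 remained among probes above the median signal (C1qa and Lpl) and 4 with normexp (C1qa, Ccl3, Ccr2 and Lpl). With the mean or the median over probes 7 were past it, Lpl and Clec7a being lost and Itgax, C3 and C4b gained. This last contrast uses all 4 arrays and was not tested.

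The wild-type starch array enters the wild-type diet difference and the starch genotype difference alike, and it was the array on which 23 of 43 members (53.5%) were highest, against 31.4% of all genes. The wild-type sucrose array was the lowest for 16 members (37.2%, against 21.2% of all genes) and the heterozygous sucrose array for 14 (32.6%, against 26.4%). The summed blood transcripts given above were also highest on wild-type starch and lowest on wild-type sucrose. In all, 31 of 43 members (72.1%) were past 1.5-fold in none of the 5 pairwise comparisons, against 86.4% of all genes.

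**Figure D2:**
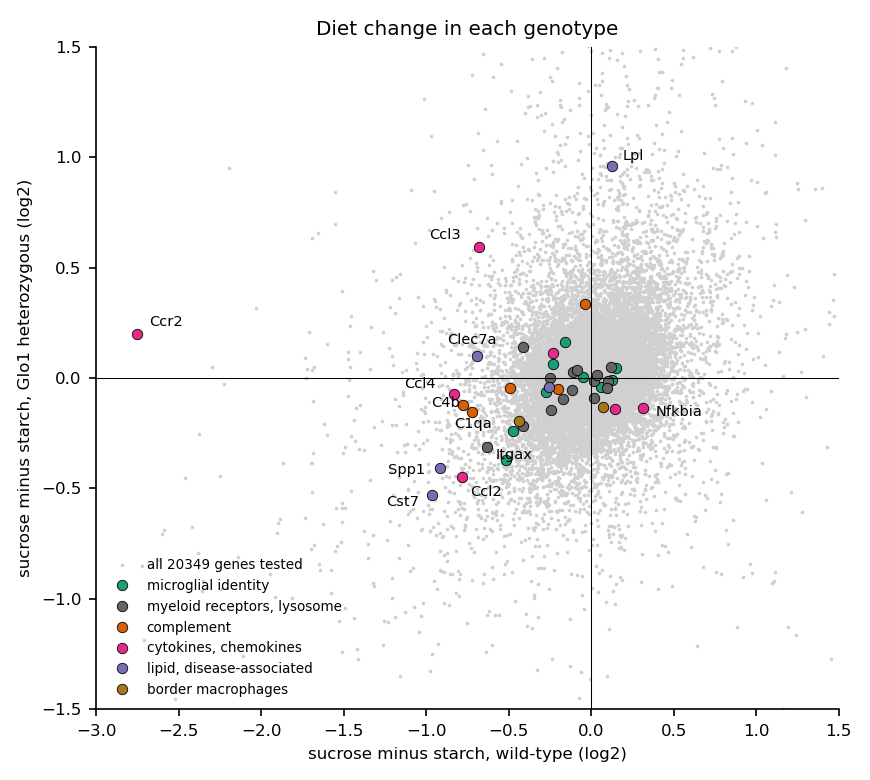
Log2 diet difference (sucrose minus starch) in wild-type mice on the horizontal axis and in Glo1 heterozygous mice on the vertical axis, for the 43 members coloured by role and for all genes tested in grey (190 genes lie outside the axes). Several members lie left of 0 and near 0 vertically, with Ccr2 far left at -2.75 and Lpl high at 0.96.

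Among genes of resting microglial identity, the receptors differed little between the arrays. The fractalkine receptor Cx3cr1 read 5.87, 6.11, 5.98 and 5.82, a span of 1.05-fold over the 4 arrays. Csf1r, the receptor of the growth factors microglia need to survive, read 17.96, 17.3, 16.7 and 16.8, and the lectin Siglech read 46.3, 41.5, 37.8 and 42.3. Neither differed by 1.5-fold between any arrays. The second Siglech probe, A_55_P2141008, which shares no such run, read 4.63, 4.77, 4.64 and 4.31. Tmem119, a membrane protein used to tell microglia from other macrophages, read 1.53 on wild-type starch and 1.11, 1.16 and 0.983 on the others, lower by 0.47 with sucrose in wild-type mice and by 0.24 in heterozygous mice. It was past the threshold on heterozygous sucrose against wild-type starch, at 64.1% of the latter. The transcription factor Sall1, named after its values were seen, read 0.473, 0.330, 0.544 and 0.420 and was lower on sucrose in each genotype, by 0.52 in the wild-type and 0.37 in the heterozygous pools. The median over the 9 identity genes was -0.16 for diet in wild-type mice, with none of the 9 past 1.5-fold, and lay between -0.10 and -0.01 in the other 3 comparisons of diet or genotype. For diet in heterozygous mice and for genotype on sucrose its sign depended on the processing.

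Most myeloid receptors and lysosomal genes differed little by their brightest probes. Itgam, the alpha chain of complement receptor 3, read 36.4, 36.8, 35.9 and 35.5. Its other, dimmer probe, A_55_P1977926, read 0.054, 0.039, 0.040 and 0.039, with wild-type starch alone as the high array, a diet difference of -0.47 in wild-type mice. Axl, a receptor for the engulfment of dying cells, read 5.58, 5.97, 5.53 and 5.36 by its brightest probe. Its dimmer probe read 0.043, 0.040, 0.069 and 0.038 and was past 1.5-fold for diet in heterozygous mice (-0.88) and for genotype on starch (0.69). The probes of Itgam and of Axl thus disagreed. Ctss, the lysosomal protease cathepsin S, read 18.5 on wild-type starch and 13.8, 14.7 and 12.6 on the others, so heterozygous sucrose was at 68.3% of wild-type starch, just short of the threshold. Ctss lay in the brightest quartile, where the technical SD of a difference between spots of the same array was 0.06. The error that the scanner software gives for the signals put that of the Ctss difference at 0.20. Itgax (CD11c), a dim probe, read 0.035, 0.023, 0.036 and 0.029 and was past the threshold for diet in wild-type mice at -0.63; it was not past it with the mean or the median over its probes. Its other measured probe gave -0.30 there, and 0.89 for diet in heterozygous mice where the brighter gave -0.31. The Tlr4 probe that carries a RefSeq accession of the gene gave -0.59 for diet in wild-type mice, past the threshold, where the brighter one without an accession gave -0.09. The median of the 15 genes for diet in wild-type mice was -0.11, and its sign was not stable across the alternatives (-0.17 to 0.01).

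The 3 chains of C1q, which opens the classical complement pathway, were each highest on the wild-type starch array. C1qa read 1.82 on wild-type starch and 1.06, 1.15 and 1.06 on the other arrays. The wild-type starch array thus stood alone, and the others differed from each other by at most 0.12 on the log2 scale. Wild-type sucrose was at 58.3% and heterozygous starch at 63.4% of wild-type starch. C1qb, named after its values were seen, read 1.43, 1.02, 1.003 and 0.972, the same shape with a smaller size, -0.49 for diet in wild-type mice. C1qc, the third chain of the same protein, read 3.77, 3.28, 3.62 and 3.50, and its diet difference in wild-type mice was -0.20. The members of one protein complex were therefore measured at -0.78, -0.49 and -0.20 in the same comparison, by 1 probe well above background each.

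C4b, the complement component cleaved after C1q binds, had another shape. It read 2.78 on wild-type starch, 1.68 on wild-type sucrose, 3.09 on heterozygous starch and 2.78 on heterozygous sucrose. Here the wild-type sucrose array stood alone as the low one, at 60.7% of wild-type starch, and heterozygous sucrose was 1.65-fold above it. The dimmer probe, shared with C4a, read 0.300, 0.166, 0.331 and 0.289, with -0.85 between the diets in wild-type mice and 0.80 between the genotypes on sucrose. By either probe, wild-type sucrose was the lowest array and heterozygous starch the highest. C3, the central component, named after its values were seen, read 0.240, 0.234, 0.206 and 0.260 by its brighter probe. Its other probe, A_51_P110301, read 0.080, 0.071, 0.067 and 0.233, so that the heterozygous sucrose array stood alone at 1.54 above wild-type starch on the log2 scale, where the brighter probe gave 0.12. The probes of C3 therefore disagreed on that array. Choroid plexus transcripts were also highest there; their part in the C3 result was not tested.

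**Figure D3:**
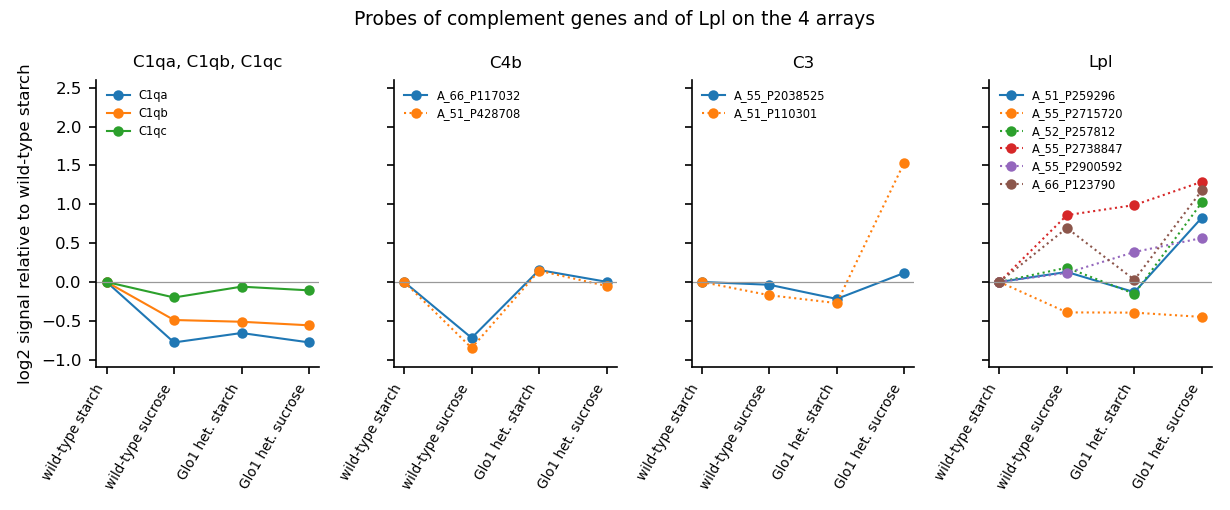
Log2 signal relative to the wild-type starch array for the probes of the C1q chains, C4b, C3 and Lpl that were well above background on all arrays; each point is 1 array, a solid line joins the values of the brightest probe of a gene and dotted lines those of its other probes, with no order among groups implied. The C4b probes run together, the C3 probes part on the heterozygous sucrose array at 0.12 and 1.54, and the Lpl probes differ from each other.

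The probes of 5 members lie on chromosome 17, as does that of Glo1, which starts at position 30729951. C4b was at a distance of 4.14 Mb from it, Aif1 at 4.58 Mb, Tnf at 4.61 Mb, Trem2 at 17.8 Mb and C3 at 26.6 Mb. Their genotype differences on starch were 0.15 for C4b, -0.18 for Aif1, -0.20 for Tnf, -0.01 for Trem2 and -0.22 for C3. On sucrose, C4b differed by 0.72 and the other members on this chromosome by between -0.10 and 0.15, all by their brightest probes. The dimmer C3 probe differed by 1.71 there. On starch 4 of the 5 were lower in the heterozygous pool, where 54.1% of all genes were, and on sucrose 2 of the 5, where 55% were; 5 genes are too few to read a direction from.

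Chemokines and their receptor gave dim signals, and most were highest on a starch array. Ccr2, the receptor that brings monocytes to tissue, read 0.085 on wild-type starch and 0.013, 0.012 and 0.014 on the others. The wild-type starch array was alone, and wild-type sucrose was at 14.8% of it, a log2 difference of -2.75 from 1 dim probe. With normexp background correction the difference was -1.37. Ccl2, the ligand of Ccr2, read 0.059, 0.034, 0.053 and 0.039 and was lower on sucrose in each genotype, by 0.78 in the wild-type and 0.45 in the heterozygous pools. Ccl4 read 0.034, 0.019, 0.028 and 0.027, and its other probe, which overlaps the first, gave -0.86 for diet in wild-type mice where the first gave -0.83. Ccl3, a ligand of the same receptor family, read 0.041, 0.026, 0.030 and 0.046, which is lower on sucrose in wild-type mice by 0.68 and higher on sucrose in heterozygous mice by 0.59. The Ccl3 value in heterozygous mice was just past the threshold and dropped below it with median scaling (0.57), cyclic loess (0.56), quantile normalisation (0.54) and normexp (0.25).

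The cytokines Tnf and Il1b differed by less than 1.5-fold between any arrays. Tnf read 0.221, 0.188, 0.192 and 0.208. Il1b, named after its values were seen, read 0.033, 0.036, 0.031 and 0.028 and lay in the dimmest quartile. Nfkbia, the NF-kappa-B inhibitor and one of its early targets, read 3.37, 4.18, 3.20 and 2.92, highest on wild-type sucrose, the array on which Ccl2, Ccl3 and Ccl4 were lowest. Between the diets it differed by 0.31 in the wild-type pools and by -0.13 in the heterozygous ones. The median of the 7 measured genes was -0.68 between the diets in wild-type mice and -0.20 between the genotypes on starch. Above the median signal Nfkbia alone remained among them, so that the median there was 0.31.

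Genes of lipid handling and of the disease-associated state pointed in different directions. Apoe, the main lipid carrier of the brain and abundant in astrocytes as well as in microglia, read 84.98, 71.0, 71.7 and 69.8, highest on wild-type starch by 0.25 to 0.28 on the log2 scale. The size of that gap depended on the scaling: the diet difference in wild-type mice was -0.26, and -0.14 with quantile normalisation or -0.16 with cyclic loess. The genotype difference on starch was -0.25, and -0.17 or -0.12 with those scalings. The difference of heterozygous sucrose from wild-type starch was -0.28, and -0.09 or -0.10. Spp1 (osteopontin, a secreted phosphoprotein) read 1.16, 0.612, 1.03 and 0.775. Sucrose was the lower diet for Spp1 in each genotype, at 52.9% of starch in wild-type mice and 75.4% in heterozygous mice. Cst7 (cystatin F, an inhibitor of lysosomal proteases) read 0.049, 0.025, 0.038 and 0.027 and was likewise lower on sucrose in each genotype, by 0.97 and 0.53. Clec7a (dectin 1, a receptor for fungal glucans) read 0.071, 0.044, 0.068 and 0.073, with wild-type sucrose alone as the low array. Its other, dimmer probe gave 0.33 for diet in wild-type mice where the brighter gave -0.69, and neither probe carries a RefSeq accession of the gene.

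Lpl, the lipoprotein lipase that frees fatty acids from triglyceride, ran the other way. It read 0.680, 0.744, 0.621 and 1.21, so the heterozygous sucrose array stood alone as the high one, at 1.95-fold over heterozygous starch and 1.62-fold over wild-type sucrose. Lpl has 6 measured probes. The 3 that carry a RefSeq accession of the gene gave diet differences in heterozygous mice of 0.96, 1.18 and 1.15, and the 3 without one gave -0.06, 0.30 and 0.18. With the mean over all 6 probes the diet difference in heterozygous mice was 0.62, past the threshold, and the genotype difference on sucrose was 0.47, below it. Lpl is also expressed by neurons, and choroid plexus transcripts were highest on the same array; their part in the Lpl result was not tested.

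Markers of macrophages at the brain's borders differed by less than 1.5-fold. The mannose receptor Mrc1 read 0.264, 0.278, 0.309 and 0.281. The haemoglobin scavenger receptor Cd163 read 0.157, 0.116, 0.125 and 0.109, with wild-type starch highest. The remaining 19 measured members, Sall1, C1qb, C3 and Il1b among them, lay between -0.52 and 0.15 for diet in wild-type mice, between -0.37 and 0.33 for diet in heterozygous mice, between -0.51 and 0.20 for genotype on starch and between -0.38 and 0.46 for genotype on sucrose. They include Tyrobp and Trem2, the adaptor and receptor of a lipid-sensing pair, the lysosomal marker Cd68, and the pattern receptors Tlr2 and Tlr4.

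**Figure D4:**
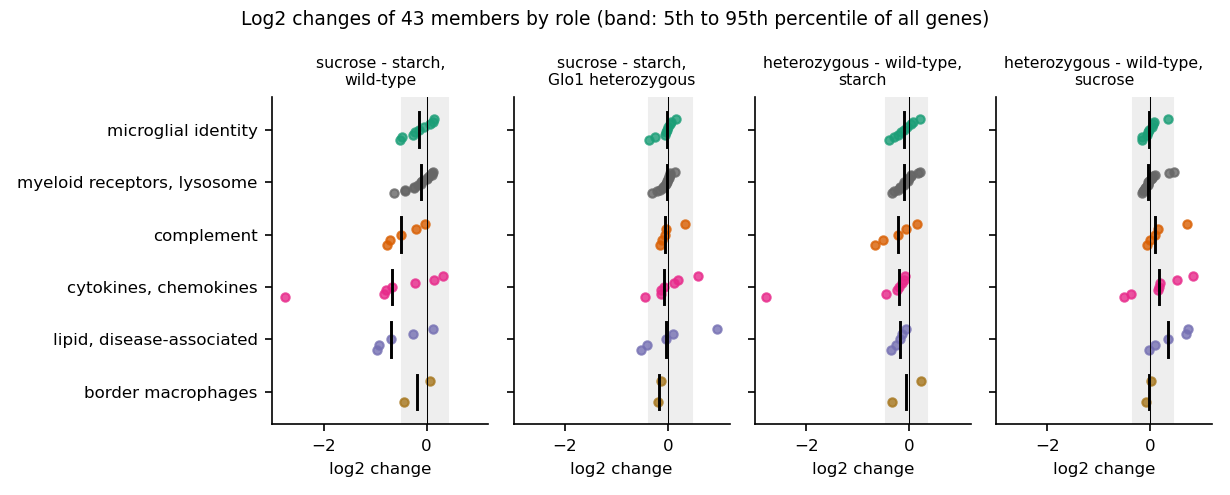
Log2 differences of the 43 members by role in the 4 comparisons of diet or genotype; each point is 1 gene, black bars are group medians, and grey bands span the 5th to the 95th percentile of all genes tested. In wild-type mice the complement, cytokine and lipid groups have medians of -0.49, -0.68 and -0.69 for diet. The band shows the spread of single genes and is no yardstick for a median of several; for genotype on sucrose the lipid median is 0.34, and 0.09 with the mean over probes.

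By role, the medians for diet in wild-type mice were -0.49 over 5 complement genes, -0.68 over 7 cytokine and chemokine genes and -0.69 over 5 lipid and disease-associated genes, against 0.00 over all genes tested. The complement median kept its sign under every alternative tried (-0.61 to -0.45), as did that of the lipid genes (-0.69 to -0.22). For diet in heterozygous mice the medians of the same groups were -0.05, -0.07 and -0.04, of which the last 2 changed sign between alternatives.

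Across the 4 arrays, an additive model of diet and genotype was fitted with limma over all 20349 genes, which takes the interaction as error and leaves 1 residual degree of freedom. No gene passed a Benjamini-Hochberg adjusted p of 0.05 for diet or for genotype, and the smallest adjusted p values were 0.413 and 0.736. At an unadjusted p under 0.05 there were 7 of 43 members for diet (16.3%, against 10.4% of all genes) and 1 for genotype (2.33%, against 6.11%). For diet there were 11 with normexp (25.6%, against 11.7%) and 7 of 26 above the median signal (26.9%, against 15.0%). With no filter on dim probes there were 4 of 44 (9.09%, against 6.85%). For genotype the share moved past that of all genes with normexp (4 members, 9.3%, against 6.07%), a trended prior (5, 11.6%, against 7.42%) and above the median signal (5 of 26, 19.2%, against 9.04%). The 7 for diet in the main fit were Ccl2, Cst7, Ctss, Itgax, Sall1, Spp1 and Tmem119. All were lower on sucrose in both genotypes by their brightest probes. A fit that takes the interaction as error favours genes with like diet differences in both genotypes, so this sharing is no separate result. The fitted diet effect was -0.66 (SE 0.16) for Spp1, -0.75 (SE 0.14) for Cst7 and -0.62 (SE 0.12) for Ccl2. C1qa and C4b, whose diet differences were -0.78 and -0.72 in wild-type and -0.12 and -0.15 in heterozygous mice, had fitted diet effects of -0.45 (SE 0.20) and -0.44 (SE 0.18). The SE here rests on 1 degree of freedom shared across genes and does not measure the spread between animals.

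Other genes of the same pathways were measured too. Of 30 further microglial genes, 29 were measured. For diet in wild-type mice their median was -0.21, with 23 lower (79.3%, against 50.1% of all genes). Past 1.5-fold was 1 of 29 (3.45%, against 5.92% of all genes), Cd33, a sialic acid receptor, at -0.72. For genotype on starch the median was -0.14, with 26 of 29 lower (89.7%, against 54.1%), and Cd33 was again the 1 gene past 1.5-fold (3.45%, against 3.92% of all genes), at -0.80. In the other diet and genotype comparisons the medians were -0.05 and -0.02. Of 27 further complement genes, 18 were measured. Their medians lay between -0.10 and 0.04, with 2 past the threshold for diet in wild-type mice, both lower (C4a and the alternative pathway factor Cfb). These were 11.1% of the 18, against 5.92% of all genes in either direction and 3.52% in the lower one. For genotype on sucrose 1 was past it, higher (C4a), a share of 5.56% against 4.54% of all genes. Since C4a and C4b are near-identical copies, the C4a value may not be independent of C4b, which was not tested.

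Of 55 further cytokine and NF-kappa-B genes, 48 were measured, and for diet in wild-type mice 6 were past 1.5-fold, all lower (12.5%, against 3.52% of all genes in that direction), and their median was -0.10. Between the diets in heterozygous mice 3 were past it as lower and 1 as higher (8.33%, against 5.53% of all genes either way). The interferon-induced chemokine Cxcl10 read 0.191, 0.049, 0.098 and 0.054, lower on sucrose by 1.96 in the wild-type and 0.84 in the heterozygous pools. Ccl5, a chemokine for T cells and monocytes, read 0.232, 0.081, 0.163 and 0.103, lower on sucrose by 1.51 and 0.65. In both genotypes the sucrose array was thus below the starch array for these chemokines, as for Ccl2. Between the genotypes on sucrose 2 of the 48 were past 1.5-fold, both higher (4.17%, against 4.54% of all genes either way), a share near the background. Among these was Cxcr4, the receptor of Cxcl12, which gave a dim signal. It read 0.022, 0.013, 0.021 and 0.029 and was higher in heterozygous than in wild-type mice on sucrose by 1.11. No value with another background correction is given here for these listed genes. The medians of the 48 genes in the other diet and genotype comparisons lay between -0.04 and 0.09.

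Markers of other blood-borne and resident cells were measured beside the members. The 11 monocyte and neutrophil genes had summed relative signals of 17.5, 11.45, 14.9 and 11.4, with medians of -0.54 for diet in wild-type mice and -0.44 in heterozygous mice. Lcn2, a neutrophil and astrocyte iron carrier, was lower on sucrose by 1.24 in wild-type mice. The 9 lymphocyte genes had sums of 2.62, 2.51, 2.27 and 2.35 and, between the diets in wild-type mice, a median of -0.08. The 10 border macrophage genes had sums of 22.4, 21.3, 23.5 and 21.0 and medians of -0.13 and -0.35 for diet in wild-type and heterozygous mice. The blood and monocyte lists were thus lower on sucrose in both genotypes, while the neuron and oligodendrocyte medians lay between -0.09 and 0.06 in the diet and genotype comparisons. The part of these cells in the differences of Ccr2, Ccl2, Itgax and Cd163, which monocytes and border macrophages also express, was not tested.

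**Figure D5:**
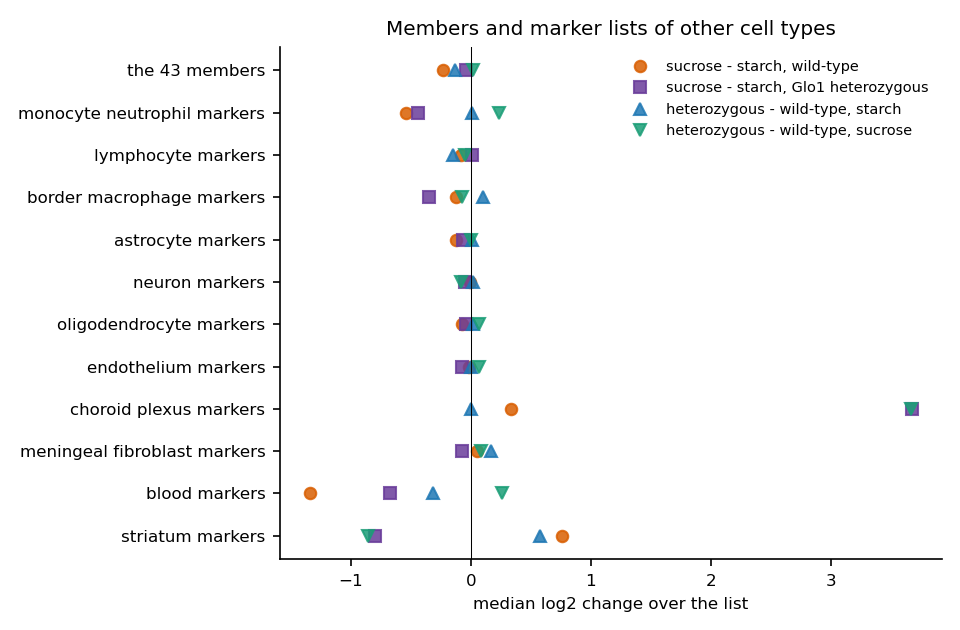
Median log2 difference of the 43 members and of 11 marker lists of other cell types in the 4 comparisons of diet or genotype, 1 symbol a comparison. The members lie between -0.23 and 0.02, the blood list at -1.34 for diet in wild-type mice, and the choroid plexus list at 3.68 and 3.67 in the comparisons that involve the heterozygous sucrose array.

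Promoter sequence was examined for the members with an entry in a RefSeq table of build GRCm38.p6, which held 32 of the 44. The windows of 300 bases run from 250 bases before to shortly after each start. The motif GAGGAAGT, the core bound by the myeloid factor PU.1, searched on both strands, was found at 3 of 32 members (9.38%: C1qc, Ctss and Spp1), against 3.69% of all 27025 genes in the table. Its inner part GAGGAA, which every GAGGAAGT contains, was found at 20 of 32 members (62.5%), against 31.3% of all genes. The kappa-B consensus was found at 3 of 32 (9.38%: C1qc, Nfkbia and Tlr2), against 5.14% of all genes. Of the 6 members that were past 1.5-fold for diet in wild-type mice and had a promoter entry, 1 held GAGGAAGT, 3 held GAGGAA and none held the kappa-B consensus. The promoters of C1qc and Spp1 are shown because, among the 3 genes with the PU.1 core, they had the smallest and the largest wild-type diet differences (-0.20 and -0.92). Capitals mark the PU.1 core on either strand and, in C1qc, also the kappa-B match nearer the start. The sequences, 5′ to 3′ on the strand of the gene, cover chr4:136892915-136893164 (minus strand) and chr5:104434861-104435110 (plus strand) of GRCm38.p6, and a match is a description of letters, not a site of binding.
C1qc: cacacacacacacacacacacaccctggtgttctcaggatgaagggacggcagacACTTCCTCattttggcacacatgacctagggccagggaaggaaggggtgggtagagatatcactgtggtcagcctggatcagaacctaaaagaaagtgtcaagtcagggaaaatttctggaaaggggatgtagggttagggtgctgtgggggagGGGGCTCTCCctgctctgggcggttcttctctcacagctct
Spp1: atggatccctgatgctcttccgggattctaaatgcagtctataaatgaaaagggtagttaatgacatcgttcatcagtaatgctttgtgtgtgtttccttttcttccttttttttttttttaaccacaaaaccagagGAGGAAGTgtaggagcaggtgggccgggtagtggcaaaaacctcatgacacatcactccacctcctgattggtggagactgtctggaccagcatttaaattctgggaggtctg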

How the data were processed

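Each of 4 one-colour (Cy3) Agilent arrays measured RNA pooled from 3 mice. The deposited scanner files hold spot intensity, processed by the authors with Agilent Feature Extraction 11.5.1.1 per the submitters' processing notes, background-subtracted and detrended within each array per the file headers, with quality flags that the deposited files code as other values. The deposited value table holds a ratio, the same intensity divided by each array's 75th percentile, as checked against the scanner files. From the processed intensity, control spots and outlier spots were left out, each array was divided by the 75th percentile of its non-control spots, and log2 values of the spots of a probe were averaged. The brightest probe stood for a gene, if well above background on all 4 arrays.

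Pairwise differences were counted at 1.5-fold, with no test, since each group has 1 array. An additive fit of diet and genotype used limma 3.58.1 in R 4.3.3, checked on simulated data. The alternatives were normexp with an offset of 50, median scaling, quantile normalisation, cyclic loess, the value table, no filter or a stricter filter on dim probes, the mean or median over probes, and outlier spots kept, and for limma a trended and a robust prior. Members past 1.5-fold in a pairwise comparison, or among the 3 brightest of their role, are given on all arrays, and other listed genes are named past 2-fold or where few passed 1.5-fold, the latter chosen after their values were seen. The members and lists were chosen with earlier results of these data known. Probe sequences and positions (mm9) come from the scanner files.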

Additional observations from a re-analysis of the deposited data

Results flagged for a closer look

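Ccl3, a chemokine made by activated microglia, drew attention because its diet differences pointed in opposite directions: -0.68 on the log2 scale in wild-type mice and 0.59 in heterozygous mice, each from 1 pair of arrays. The difference between them was not tested, and the probe lay in the dimmest quartile, where the technical SD of a difference was 0.26 by spike-in probes and 0.15 by gene probes.

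The C3 probe A_51_P110301, which does not stand for C3 in the comparisons because it is the dimmer one, gave a log2 difference of 1.54 between heterozygous sucrose and the control, wild-type starch. The brighter C3 probe gave 0.12 for the same pair of arrays. With the mean or the median over both probes, C3 was past 1.5-fold and higher on heterozygous sucrose than on each other array.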

How the results depend on the processing

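No value of a named member that was past 1.5-fold reversed its sign under any of the 10 alternatives. Some smaller values did. With the mean over probes, Itgax for diet in heterozygous mice went from -0.31 to 0.29. Lpl for genotype on starch went from -0.13 to 0.12. Of 1150 values of named members, 1046 moved by less than the technical SD. The other 104 moved by more (117 if the SD of gene probes is used in the dimmest quartile). Of 120 values each, 12 moved with normexp, 18 with cyclic loess, 22 with quantile normalisation and 26 with the mean or the median over probes. The filters and the value table use the same probe intensities, so values could hardly move there. The median over the members for diet in wild-type mice ranged from -0.23 to -0.12, the latter among probes above the median signal. The counts past 1.5-fold moved with several settings. For diet in wild-type mice 10 members became 4 with normexp and 3 above the median signal. For diet in heterozygous mice 2 became 1 with normexp, median scaling, cyclic loess or above the median signal, stayed at 2 with quantile normalisation (Cst7 in place of Ccl3) and became 3 with the mean or median over probes. Above the median signal, genotype on starch went from 2 to 1, genotype on sucrose from 4 to 2 (also 2 with normexp, and 5 with the median over probes), heterozygous sucrose against wild-type starch from 6 to 3 (and up to 9 with median scaling), and the difference of the diet effects from 6 to 2; the cause for normexp was not tested, and the stricter filter tests 26 members instead of 43. The limma fit for diet called 8 of 10174 genes above the median signal, no member among them, against 0 of 20349 genes; the members' smallest adjusted p for diet lay between 0.125 and 0.713 over the alternatives. No paired analysis was possible because each group has 1 array, so that no replicate numbers pair arrays; the limma fit compares the diets within genotype, as a second factor. The number of arrays limits the precision, and nothing here measures the spread between animals.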

Other observations

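Some genes outside the member list had their highest signal on the heterozygous sucrose array, as Lpl did, and were named after their values were seen. Choroid plexus transcripts were also highest on that array, and their part in the values of these genes was not tested. The interleukin 1 receptor Il1r1 read 0.135, 0.143, 0.138 and 0.267 on wild-type starch, wild-type sucrose, heterozygous starch and heterozygous sucrose, a diet difference of 0.96 in heterozygous mice on the log2 scale. The astrocyte filament gene Gfap read 2.05, 1.29, 2.24 and 2.86, lower on sucrose by 0.68 in wild-type mice and higher by 0.35 in heterozygous mice, so the wild-type sucrose array was its low point, as it was for C4b. The 12 astrocyte markers together had medians of -0.13 and -0.07 for diet in these genotypes.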
